A study of Mus musculus with 9 samples.

Results

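Pltp, the gene for phospholipid transfer protein, was examined together with 7 genes of lipid export that are regulated by the liver X receptors (LXRs) or encode them. The 8 named members were Pltp, Abca1, Abcg1, Apoe, Lpcat3, Mylip, Nr1h3 and Nr1h2. Of these, 7 were matched by gene symbol to 1 probe set each, among 22180 genes measured by a probe set of 1 gene. Nr1h2 was not named by the probe annotation and was not analysed here. Pltp was selected on its measured log2 signal, which differed between these groups of arrays, so its levels are given as a description with no test, and the other members were chosen for their place in the pathway, with earlier results of these arrays known.

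The cells were N1E-115, a mouse neuroblastoma line, and the series concerns the part of the chromatin regulator Hmgn5 in neurite outgrowth. All cells were transfected with 80 nM siRNA, starved of serum overnight and then replated on laminin at 10 µg/ml, where they extend neurites. Serum at 10% is also recorded for the samples of every group. RNA of whole cells was hybridised to 9 arrays, 3 for each group. The groups were cells with Hmgn5 siRNA 24 h after replating, cells with control siRNA after the same 24 h, and cells with control siRNA after 4 h. The Hmgn5 reagent was a pool of siRNAs, and the labels name no separate clone, culture or batch. The p-values therefore set differences of group means only against the spread among arrays within groups, and that spread could be technical.

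LXRs are nuclear receptors that bind DNA as heterodimers with retinoid X receptors and are switched on by oxysterols, the oxidised forms of cholesterol. When bound by these ligands they raise the transcription of genes that move sterols out of the cell. Among these are the membrane transporters ABCA1 and ABCG1, the lipoprotein component apolipoprotein E, and enzymes that remodel phospholipids. Phospholipid transfer protein is secreted and carries phospholipids between lipoprotein particles, and it is a known LXR target in mouse liver and macrophages.

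Pltp and Abca1, the LXR target selected here and a sterol exporter of the same pathway, are shown by the 250 bases before their transcription start, 5′ to 3′ on the gene's strand, from RefSeq (GRCm38.p6). The Pltp window lies at chr2:164857709-164857958 on the minus strand and the Abca1 window at chr4:53159896-53160145 on the minus strand. Both were searched on both strands for a direct repeat of AGGTCA with 4 bases of any kind between the 2 copies, the ideal form of an LXR element, and the capitals mark the closest match or matches.
Pltp: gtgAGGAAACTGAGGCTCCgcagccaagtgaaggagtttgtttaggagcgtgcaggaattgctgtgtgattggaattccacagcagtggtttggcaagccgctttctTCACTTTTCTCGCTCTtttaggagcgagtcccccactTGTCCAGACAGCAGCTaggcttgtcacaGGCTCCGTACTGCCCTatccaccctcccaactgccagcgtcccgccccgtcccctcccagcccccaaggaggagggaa
Abca1: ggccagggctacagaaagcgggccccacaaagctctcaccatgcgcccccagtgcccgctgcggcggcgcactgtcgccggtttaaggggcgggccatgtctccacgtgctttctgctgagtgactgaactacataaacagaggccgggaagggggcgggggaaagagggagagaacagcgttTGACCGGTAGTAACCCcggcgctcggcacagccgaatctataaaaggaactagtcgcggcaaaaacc

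The closest match in the Abca1 window differed from the repeat at 3 of its 12 fixed letters and began 67 bases before the start, on the opposite strand. In the Pltp window the closest matches, 4 in number and none overlapping another, differed at 5 letters. Of all 32851 RefSeq promoter windows of this length, 18.5% held a match with at most 3 mismatches, 70.6% one with at most 4 and 99.5% one with at most 5. The Pltp window was thus among those without a match of at most 4 mismatches. Among the members, 7 of 8 had a window, Abcg1 being the exception, and 1 of their 10 windows held a match within 3 mismatches. Srebf1, an LXR target whose signal differed with time and is described with the pathway genes, held one as well, in 1 of its 3 windows, 182 bases before the start at chr11:60210472-60210721. Srebf1 was the only pathway gene outside the members whose windows were examined individually. Whether the matches of Abca1 and Srebf1 bind LXRs was not tested. They are printed in the direction of the repeat, with the half-sites in capitals.
Abca1: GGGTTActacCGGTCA
Srebf1: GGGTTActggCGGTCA

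These matches are descriptions of sequence, and elements farther from the start were not searched.

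Array medians lay between 5.16 and 5.30 log2 units, and Pearson's r between arrays was 0.978 to 0.995 across probe sets. The array least like the rest was control siRNA 4 h replicate 2, whose limma array weight was 0.198 where the others had 0.789 to 1.74. Hmgn5, the targeted gene, had a mean signal of 3.49 ± 0.04 with Hmgn5 siRNA and 4.71 ± 0.06 with control siRNA at 24 h (log2, mean ± SD, n = 3 each). The difference was -1.21 log2 units (SE 0.09, limma adjusted p = 0.00367). The Hmgn5 probe set exceeded only 13.8% to 42.5% of probe sets over the 9 arrays, and its background was not estimated, so these signals give no exact share of RNA lost. That call was lost without Hmgn5 siRNA 24 h replicate 2 or 3 or control siRNA 24 h replicate 1 (adjusted p = 0.0552, 0.0506 and 0.0558). Markers of adrenergic neuroblastoma, 8 of 10 of them measured, had values of 8.10 to 12.2. Markers of macrophages, glia, hepatocytes and fibroblasts had values of 3.32 to 6.83, and no detection call accompanied these values.

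Pltp had the widest range of the 7 measured members, 1.04 log2 units over the 9 arrays. With Hmgn5 siRNA at 24 h its signal was 7.89, 7.94 and 7.81 log2 units. With control siRNA it was 6.99, 6.95 and 6.95 at 24 h, and 7.99, 7.59 and 7.85 at 4 h. All 3 Hmgn5 siRNA arrays and all 3 control arrays at 4 h lay above every control array at 24 h, while the Hmgn5 siRNA arrays lay inside the range of the 4 h controls.

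The Pltp difference between Hmgn5 siRNA and control siRNA at 24 h was 0.92 log2 units with SE 0.09, so the signal with Hmgn5 siRNA was 189% of the control signal (95% interval 163% to 218%). In control cells the difference between 24 h and 4 h was -0.85 with SE 0.09, the 24 h signal being 55.6% of the 4 h signal (48.1% to 64.3%). The 24 h control arrays enter both of these differences, subtracted in the first and as the minuend of the second. Set against control cells at 4 h, cells with Hmgn5 siRNA at 24 h had 105% of the Pltp signal (90.7% to 121%), a comparison in which siRNA and time differ together. Leaving out each array in turn gave differences of 0.89 to 0.95 between the siRNAs and -0.96 to -0.76 between the times. The array of low weight was the lowest of the 4 h controls for Pltp, and without it the difference between times was -0.96 and the difference between Hmgn5 siRNA at 24 h and control siRNA at 4 h was -0.04. In whole-cell RNA, fewer cells that express a gene and less RNA per cell cannot be told apart.

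**Figure D1:**
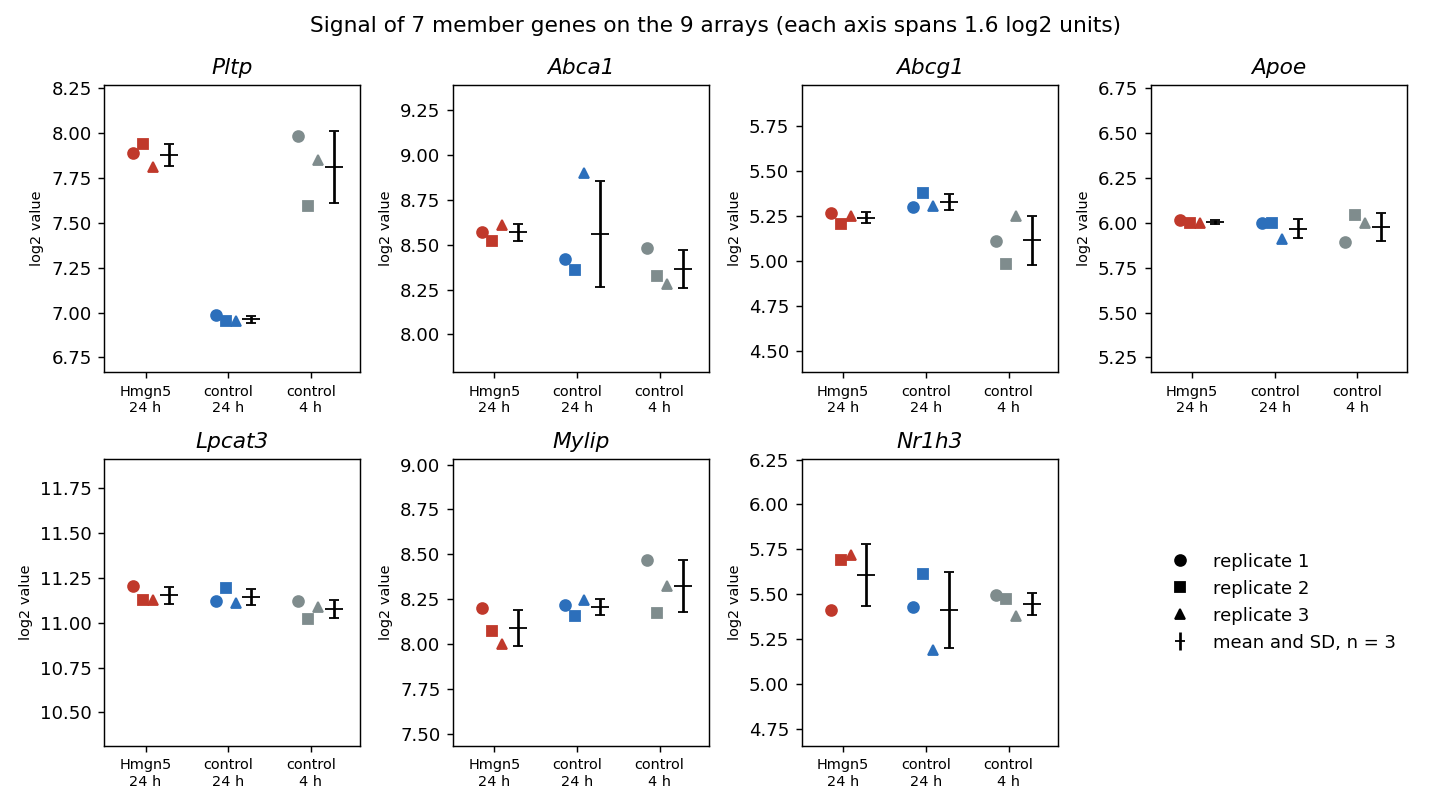
Signal of the 7 measured members on each array, in log2 units, in cells with Hmgn5 siRNA at 24 h and then in control cells at 24 h and at 4 h, with point shapes for replicates and bars for the mean and SD (n = 3). All vertical axes have the same span. Pltp, selected on these differences, alone of the 7 has both other groups clear of the 24 h controls by more than 0.5 units.

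Between Hmgn5 siRNA and control siRNA at 24 h, none of the other 6 measured members passed (limma adjusted p under 0.05 over 22180 genes), and none had an unadjusted p under 0.05. Of all genes, 0.0135% passed in this comparison, 0.00902% higher and 0.00451% lower. The adjusted p-values of the 6 lay between 0.984 and 0.999, their differences between -0.12 and 0.20, and their median was 0.01, where the median over all genes was 0.00. The 95% intervals of the 6 differences together ran from 80.7% to 137% of the control signal. Whether Pltp differs from the other members in its response was not tested, since Pltp was selected on its differences in these arrays.

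The sterol transporters were close to the 24 h controls. Abca1, which loads cholesterol and phospholipid onto lipid-poor apolipoproteins, had 8.57, 8.52 and 8.61 log2 units with Hmgn5 siRNA, against 8.42, 8.36 and 8.90 with control siRNA at 24 h and 8.48, 8.33 and 8.28 at 4 h. The 24 h control spread was set by replicate 3, which was higher than every other array, and the groups overlapped. The difference between siRNAs was 0.01 (SE 0.13, 95% interval -0.28 to 0.30, limma adjusted p = 0.999), and it was 0.18 without that replicate. Abcg1, which passes cholesterol on to mature high-density lipoprotein, had 5.27, 5.21 and 5.25 with Hmgn5 siRNA, against 5.30, 5.38 and 5.30 with control siRNA at 24 h. It was the 1 member of the 6 whose siRNA groups did not overlap, lower with Hmgn5 siRNA at a difference of -0.09 (SE 0.07, adjusted p = 0.992), and 12.3% of all genes had groups that did not overlap.

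Apoe, the lipid carrier of glia and of many lipoproteins, had the smallest range of the members, 0.15 over all 9 arrays. Its means were 6.0 ± 0.01 with Hmgn5 siRNA, 5.97 ± 0.05 with control siRNA at 24 h and 5.98 ± 0.08 at 4 h (log2, mean ± SD, n = 3 each), and the groups overlapped. On 4 of the 9 arrays its deposited value was identical, as 4 or more values were for 14.4% of all genes. Lpcat3, an acyltransferase that places polyunsaturated chains in phospholipids, had a range of 0.18 and a pooled SD within groups of 0.0463, where that of Apoe was 0.0548. It had 11.21, 11.13 and 11.12 with Hmgn5 siRNA, against 11.12, 11.19 and 11.11 with control siRNA at 24 h and 11.12, 11.02 and 11.09 at 4 h. Its interval for the siRNA difference was -0.12 to 0.14, and that of Apoe was -0.10 to 0.17.

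Mylip encodes an E3 ubiquitin ligase, also called IDOL, that sends the LDL receptor and its relatives for degradation when LXRs are active. Its signal was 8.20, 8.07 and 8.0 with Hmgn5 siRNA, against 8.22, 8.16 and 8.25 with control siRNA at 24 h and 8.47, 8.17 and 8.32 at 4 h. The siRNA groups overlapped at the top of the Hmgn5 siRNA values, and the difference was -0.12 (SE 0.09, adjusted p = 0.984). Nr1h3, which encodes LXR alpha itself, had 5.41, 5.69 and 5.72 with Hmgn5 siRNA, against 5.43, 5.61 and 5.19 with control siRNA at 24 h and 5.49, 5.47 and 5.38 at 4 h. Its difference between siRNAs, 0.20 (SE 0.12, adjusted p = 0.984), was the largest of the 6 over all 9 arrays, and its arrays overlapped between groups. Without control siRNA 24 h replicate 3 it was 0.0859, below the 0.179 of Abca1.

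On each array the share of probe sets with a lower value than Abcg1 was 44.5% to 52.8%, for Nr1h3 50.1% to 58.4% and for Apoe 60.0% to 61.9%. Pltp exceeded 71.3% to 80.2%, Mylip 80.8% to 84.4%, Abca1 82.9% to 88.0% and Lpcat3 97.9% to 98.2% of probe sets. Abcg1, Nr1h3 and Apoe thus lay near the middle of the arrays, and how much of their signal was background was not tested.

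**Figure D2:**
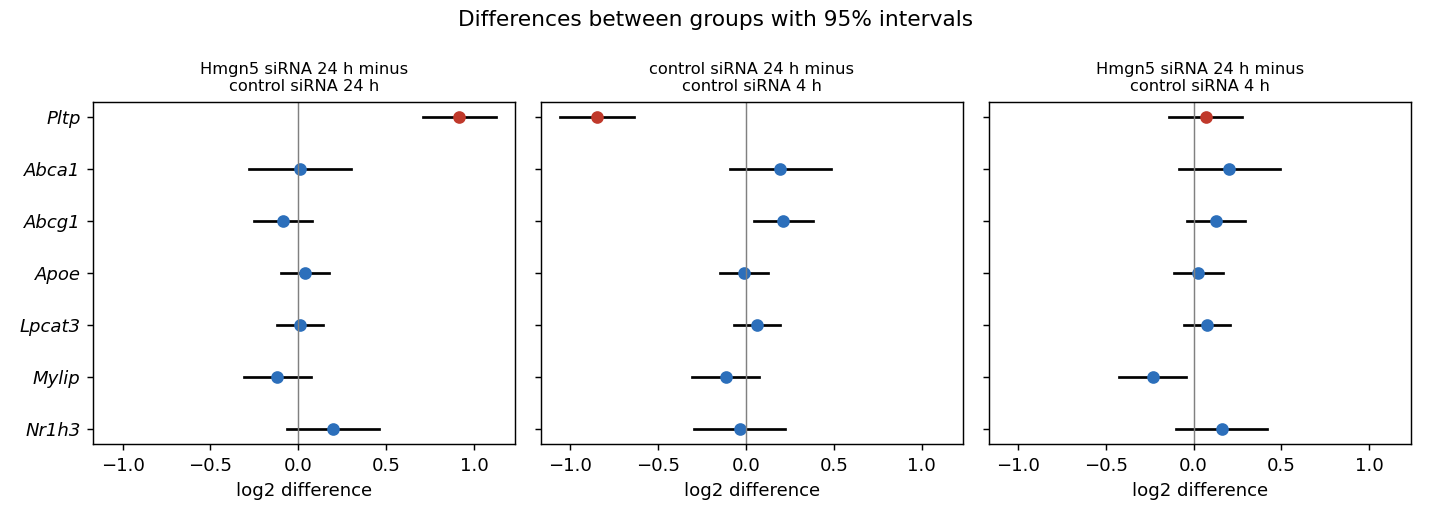
Differences in log2 units between groups for the 7 measured members, with 95% intervals from the fit of all 9 arrays, in 1 panel for each of the 3 comparisons. Pltp (red) is at 0.92, -0.85 and 0.07, and the other members (blue) lie between -0.23 and 0.21.

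Between 24 h and 4 h in control cells, none of the other 6 members passed either (limma adjusted p under 0.05), where 4.34% of all genes did (2.17% higher and 2.17% lower), and 1 had an unadjusted p under 0.05, as 18.0% of all genes did. That 1 was Abcg1, with 5.30, 5.38 and 5.30 log2 units at 24 h and 5.11, 4.98 and 5.25 at 4 h, a difference of 0.21 (SE 0.07, adjusted p = 0.158). Its 24 h and 4 h arrays did not overlap, which held for 1 of the 6 members and for 21.3% of all genes. Abca1 had a difference of 0.19 (SE 0.13, adjusted p = 0.483), and its 24 h arrays overlapped the 4 h arrays. Without control siRNA 24 h replicate 3 that difference was 0.0253. The values for Mylip (-0.11), Nr1h3 (-0.04), Apoe (-0.01) and Lpcat3 (0.06) did not pass. The direction of Apoe turned with each array centred on its median (0.03) or with array weights (0.01), and that of Nr1h3 with median centring (0.00).

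Between Hmgn5 siRNA at 24 h and control siRNA at 4 h, where 2.57% of all genes passed (1.52% higher and 1.04% lower), none of the 6 passed in limma's test and 1 had an unadjusted p under 0.05, as 15.7% of all genes did. It was Mylip, with a mean of 8.09 ± 0.10 with Hmgn5 siRNA at 24 h and 8.32 ± 0.15 with control siRNA at 4 h (n = 3 each), a difference of -0.23 (SE 0.09, limma adjusted p = 0.216). Abca1 and Lpcat3 were the 2 members whose groups did not overlap, with differences of 0.20 and 0.08, and 18.9% of all genes had groups that did not overlap.

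Other genes of the pathway were taken from 6 lists: further LXR targets, LXR partners and coregulators, sterol export and trafficking, oxysterol metabolism, lipoprotein receptors, and the relatives of Pltp with phospholipid remodelling enzymes. Of their 115 genes 102 were measured, and none passed between Hmgn5 siRNA and control siRNA at 24 h (limma adjusted p under 0.05). At an unadjusted p under 0.05 there were 3 of the 102, and 5.25% of all genes. The differences were above 0 for 48 and below 0 for 54, and their median was 0.00, as over all genes.

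Among the relatives of Pltp, Lbp, the lipopolysaccharide-binding protein of the same protein family, had 7.89, 7.92 and 7.84 log2 units with Hmgn5 siRNA, against 8.13, 7.99 and 8.21 with control siRNA at 24 h. These groups did not overlap, and the difference of -0.23 (SE 0.07) did not pass (limma adjusted p = 0.798). Mboat7, a lysophospholipid acyltransferase, had a difference of 0.16 (adjusted p = 0.944). Of the LXR targets, the phagocytic receptor gene Mertk (0.18) and the bile acid synthesis gene Cyp7a1 (-0.12) had the smallest p. Of the coregulators, Tbl1x (0.13) and Tbl1xr1 (0.11), subunits of a nuclear receptor corepressor complex, came first. Differences were above 0 for 14 of the 18 partners and coregulators and for 6 of the 23 relatives of Pltp and remodelling enzymes. The medians of these lists were 0.04 and -0.01. In the other lists 8 of 18 LXR targets, 10 of 24 sterol export genes, 5 of 9 oxysterol genes and 5 of 10 receptor genes were above 0. Of all 22180 genes 10907 were. The lipid transporter gene Abca2 (-0.15) and the lysosomal cholesterol exporter gene Npc1 (0.11) led the sterol export list. Cyp39a1 (-0.23) and Ch25h (-0.08), both oxysterol enzymes, led the ligand list, and the sorting receptor Sort1 (-0.13) and the receptor chaperone Lrpap1 (-0.08) the receptor list. None of these passed.

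**Figure D3:**
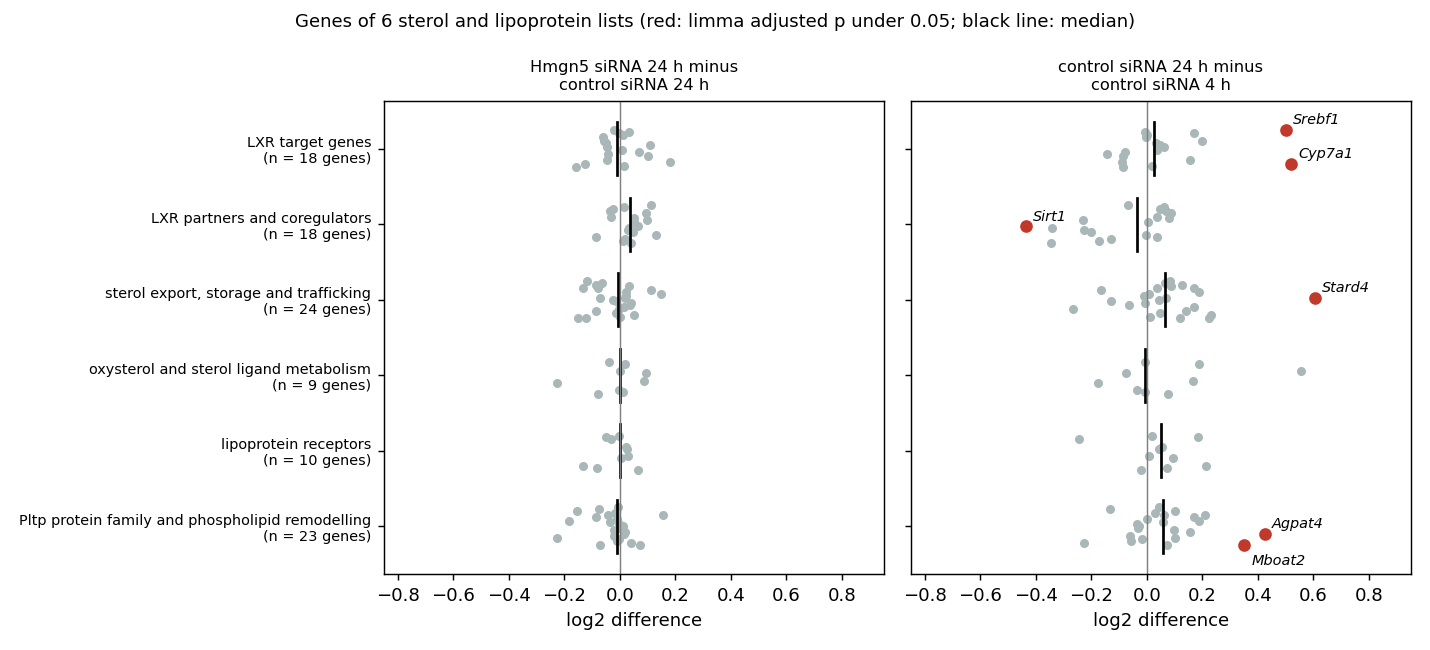
Differences in log2 units for 102 genes of the 6 lists, between the siRNAs at 24 h (left) and between the times in control cells (right), with 1 point a gene, red where limma's adjusted p was under 0.05, and a black line at each list's median. No point is red on the left, and 6 are on the right.

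Over time in control cells 5 of the 102 pathway genes were called higher and 1 lower, 5.88% of them, against 4.34% of all genes. At an unadjusted p under 0.05 there were 20 of the 102, and 18.0% of all genes. The median of the 102 was 0.04 and that of all genes 0.02. Without control siRNA 24 h replicate 1 there were 2 calls and without replicate 2 there were 3, while leaving out any other array gave 4 or 5. Calls over all 22180 genes were 355 and 310 without these arrays, against 963 with all.

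Of the 18 LXR targets 2 were called higher and none lower, where 2.17% of all genes were called in each direction. The differences of 11 of the 18 were above 0 and those of 7 below, and of all 22180 genes 12173 were above 0. Srebf1, the transcription factor that drives fatty acid synthesis, had 9.72, 9.56 and 9.47 log2 units at 24 h, against 9.19, 8.94 and 9.12 at 4 h. Every 24 h array was above every 4 h array, and the difference was 0.50 (SE 0.09, limma adjusted p = 0.0179), a call lost without control siRNA 24 h replicate 1 or 2 (adjusted p = 0.0723 and 0.0624). With Hmgn5 siRNA Srebf1 had 9.66, 9.58 and 9.45, a difference of -0.02 from the 24 h controls (95% interval -0.23 to 0.19).

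Cyp7a1, the first enzyme of bile acid synthesis in liver, had 5.96, 5.84 and 5.70 at 24 h, against 5.23, 5.42 and 5.28 at 4 h, a rise of 0.52 (SE 0.08, limma adjusted p = 0.00835). Its signal exceeded only 50.6% to 60.9% of probe sets, and how much of it was background was not tested. Stard4, which carries cholesterol between membranes, had 8.43, 8.37 and 8.33 at 24 h, against 7.87, 7.54 and 7.91 at 4 h. It was the 1 of 24 sterol export and trafficking genes called higher. Its difference was 0.60 (SE 0.10, adjusted p = 0.0104, and 0.0504 without control siRNA 24 h replicate 1). Srebf1 and Stard4 are known targets of the SREBP factors, which act when cell sterol is low. Whether these factors had a part in the differences was not tested.

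Sirt1, a deacetylase that acts on LXRs, was the 1 of 18 partners and coregulators called lower. It had 7.80, 7.82 and 7.63 at 24 h, against 8.19, 8.16 and 8.21 at 4 h, a difference of -0.43 (SE 0.07, limma adjusted p = 0.00832). Among 23 relatives of Pltp and phospholipid remodelling enzymes, the acyltransferase genes Agpat4 (0.43, adjusted p = 0.0383) and Mboat2 (0.35, adjusted p = 0.0462) rose. The Agpat4 call was lost without any 1 array except control siRNA 4 h replicate 3 (adjusted p up to 0.137), and the Mboat2 call without any except Hmgn5 siRNA replicate 3 and control siRNA 4 h replicate 2 (up to 0.153). No gene of the 9 for oxysterol metabolism or of the 10 for lipoprotein receptors passed. An unadjusted p under 0.05 was found for 1 and 2 of them, and for 18.0% of all genes. The sterol isomerase gene Ebp (0.55, adjusted p = 0.17) and Cyp11a1 (0.19) led the first list and Sort1 (0.21) and the lipoprotein receptor Lsr (0.19) the second.

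The adrenergic marker list was lower on every 4 h array, its mean over 8 markers lying at 10.52 to 10.58 with Hmgn5 siRNA at 24 h, 10.52 to 10.60 with control siRNA at 24 h and 10.08 to 10.37 with control siRNA at 4 h, with 2 markers called between the times. The part of these values in the time differences was not tested. The mean of 8 macrophage and microglia markers, cells rich in LXR targets, lay at 4.73 to 4.77, 4.73 to 4.79 and 4.76 to 4.78 in the same groups, with none called. That of 6 astrocyte and Schwann cell markers lay at 4.37 to 4.52, 4.43 to 4.55 and 4.39 to 4.42, the control groups not overlapping, with 1 marker called between the times.

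Between Hmgn5 siRNA at 24 h and control siRNA at 4 h, 4 pathway genes were called higher and 1 lower (limma adjusted p under 0.05, 4.90% of the 102, against 2.57% of all genes). These were Srebf1 (0.48), Cyp7a1 (0.40), Stard4 (0.62), Agpat4 (0.44) and Sirt1 (-0.37). This comparison shares its 4 h arrays with the comparison of times. The 5 calls became 0 without Hmgn5 siRNA 24 h replicate 1 or 3, 1 without its replicate 2, and 2 without control siRNA 24 h replicate 2 or control siRNA 4 h replicate 1 or 3. Over all genes the 569 calls became 175, 165 and 221 without Hmgn5 siRNA 24 h replicate 1, 2 and 3, and 349, 401 and 323 without the other 3 arrays in the order given. Against the 24 h controls the same genes differed by -0.02, -0.12, 0.02, 0.01 and 0.07 in that order, and none of these differences passed. Pltp was at 0.07 from the 4 h controls and at 0.92 from the 24 h controls.

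The genes whose signal was most like that of Pltp were sought among 6973 genes with a range of at least 0.5 log2 units, by Pearson's r over the 9 arrays. The first 5 were Sting1 (r = 0.958, Spearman's rho 0.883), Niban1 (0.920, 0.650), Capn6 (0.896, 0.517), Pvr (0.880, 0.803) and Zc3h8 (0.879, 0.932). Another 2 genes with a higher r than the last of these were passed over for their kind of symbol. The 5 are the highest of many and the 9 arrays fall into 3 groups, so the values are a description with no test. Sting1 encodes an adaptor of cytosolic DNA sensing, Niban1 a protein induced by cellular stress, Capn6 a calpain relative that binds microtubules, Pvr a nectin-like adhesion receptor and Zc3h8 a zinc finger protein.

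Sting1 had 6.30, 6.45 and 6.36 log2 units with Hmgn5 siRNA at 24 h, against 6.01, 6.05 and 5.94 with control siRNA at 24 h and 6.47, 6.36 and 6.43 at 4 h. Capn6 had 9.74, 9.59 and 10.06 with Hmgn5 siRNA, against 8.90, 8.79 and 8.63 with control siRNA at 24 h and 9.97, 10.07 and 9.84 at 4 h. In each of the 5, chosen for their likeness to Pltp on these same arrays, all Hmgn5 siRNA arrays and all 4 h control arrays lay above the 24 h controls. Their differences between siRNAs were 0.37, 0.38, 1.02, 0.35 and 0.26 in the order given. Over the same arrays the r of the members with Pltp was 0.36 for Nr1h3, 0.09 for Apoe, 0.07 for Mylip, -0.10 for Lpcat3, -0.19 for Abca1 and -0.52 for Abcg1. Of these members only Nr1h3 and Abca1, with ranges of 0.53 and 0.61, reached the 0.5 log2 units asked of the genes searched. The ranges of Apoe, Lpcat3, Abcg1 and Mylip were 0.15, 0.18, 0.40 and 0.47, so their r is not on the same footing.

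**Figure D4:**
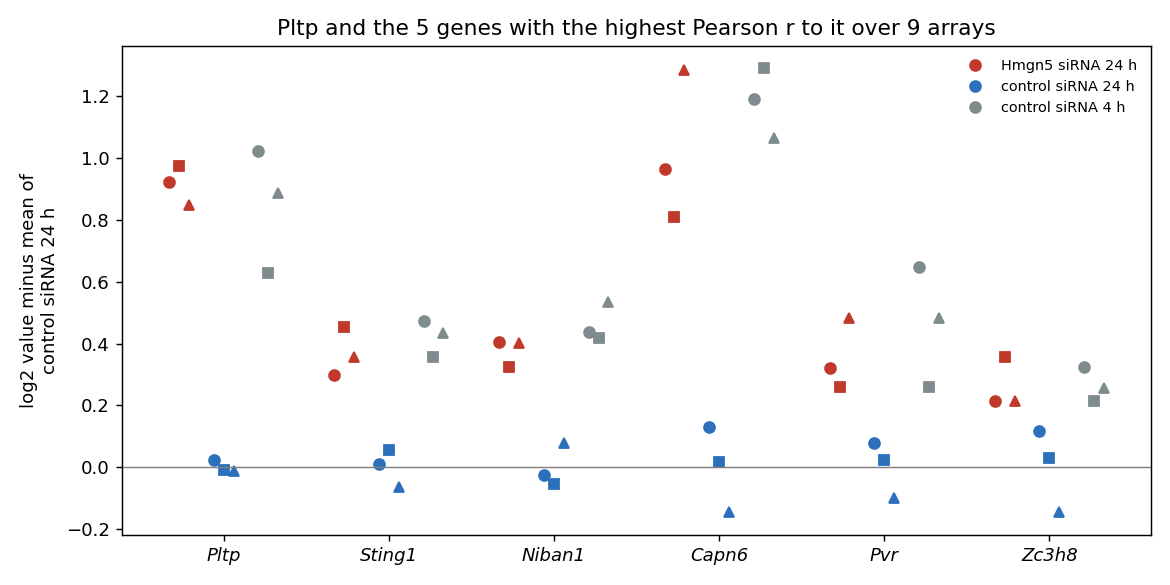
Signal of Pltp and of the 5 genes most like it, in log2 units relative to the mean of control siRNA at 24 h, with 1 point an array, colours for groups and shapes for replicates 1 (circle), 2 (square) and 3 (triangle). The 5 genes were chosen for their likeness to Pltp on these arrays. In all 6 genes the Hmgn5 siRNA arrays and the 4 h control arrays lie above the 24 h control arrays.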

How the data were processed

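Total RNA of 9 samples was amplified and hybridised to Affymetrix whole-transcript arrays. The authors deposited 1 log2 value per probe set and array, made with RMA in oligo per the submitters' processing notes, with versions and genome build not given in the sources used here. RMA includes quantile normalization, which would hide a shift common to the bulk of genes.

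Symbols came from the platform annotation, which gave 1 gene for 23521 of 41345 probe sets, several for 1814 and none for 16010. A gene was represented by its probe set with the highest mean, and each measured member had 1. Groups came from sample titles, and no 2 arrays were identical.

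limma 3.58.1 in R 4.3.3 fitted group means over all 9 arrays, with 6 residual and 3.55 prior degrees of freedom, and called genes where p, adjusted by Benjamini-Hochberg across all 22180, was under 0.05. Intervals are at 95% and unadjusted, and steps were tested on simulated data. Members and lists were chosen with earlier results of these data known. Named were the members, Hmgn5, up to 4 called genes per list and comparison or the 2 with the smallest p, and the 5 genes most like Pltp, leaving out clones, predicted genes, olfactory and vomeronasal receptors and small RNAs. Alternatives were the replicate block, 2 groups alone, another prior, array weights, a filter on dim genes, cyclic loess, median centring, averaged probe sets and leaving out arrays.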

Additional observations from a re-analysis of the deposited data

How the results depend on the processing

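None of the measured members besides Pltp was called in any of the 3 comparisons under any of the 17 alternatives. Neither was any pathway gene between the siRNAs, and Pltp was given no test. The Pltp difference between siRNAs stayed between 0.89 and 0.95, between times between -0.96 and -0.76, and between Hmgn5 siRNA at 24 h and control siRNA at 4 h between -0.04 and 0.16. Over time the 6 pathway calls became 1 with only the 2 groups fitted, 10 with array weights (280 and 1685 of all genes, against 963) and 2 to 5 with 1 array left out. Between Hmgn5 siRNA at 24 h and control siRNA at 4 h the 5 calls became 3 with the replicate block, 3 with median centring, 0 with only the 2 groups fitted (505, 523 and 113 of all genes, against 569) and 0 to 4 with 1 array left out. The cause was not tested.

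The labels do not state that equal replicate numbers pair the samples. Between arrays of the same number, deviations from the group means correlated at 0.01 to 0.29, and over 0.1 in 2 of 9 pairs. All 9 arrays correlated best, among arrays of the other groups, with an array of their own number. This is a hint of pairing that the main fit did not use. Beside the count above, the replicate block reduced the 3 genes called between the siRNAs to 1. With it Agpat4 was not called between times (limma adjusted p = 0.0583), and neither Agpat4 (0.0672) nor Cyp7a1 (0.0552) between Hmgn5 siRNA at 24 h and control siRNA at 4 h. It ended no other call of a named gene. Leaving out 1 array gave 0 to 2 genes called between the siRNAs.

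Directions of differences that were not called turned as follows. Between the siRNAs cyclic loess gave -0.00789 for Abca1, -0.00252 for Agpat4 and -0.0083 for Lpcat3. With 1 array left out, the ranges were -0.0918 to 0.18 for Abca1, -0.0188 to 0.0584 for Agpat4, -0.0150 to 0.0368 for Lpcat3, -0.0762 to 0.0486 for Srebf1 and -0.0244 to 0.0540 for Stard4. Between times Apoe was at 0.0108 with array weights and 0.0291 with median centring, and Nr1h3 at 0.00294 with median centring. Their ranges with 1 array left out were -0.0537 to 0.0234 for Apoe and -0.14 to 0.0740 for Nr1h3. Between Hmgn5 siRNA at 24 h and control siRNA at 4 h that of Apoe was -0.0166 to 0.0606. The 3 arrays in each group limit the precision, and the filter on dim genes removed 33 list genes and Hmgn5 itself.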
